A study of Mus musculus with 14 samples.

Results

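Perineuronal net components were followed as 10 genes: the lecticans Acan, Bcan, Ncan and Vcan, the link proteins Hapln1, Hapln2 and Hapln4, the cross-linker Tnr, and the hyaluronan synthases Has2 and Has3. They were picked by name from 39017 gene IDs, with earlier results of these data known, and all 10 passed the filter on low counts that left 21298 genes for testing. RNA was measured in hippocampi of adult male mice of C57BL/6 background that carried PV-Cre and a Cre-dependent EGFP-L10a allele in every group. In translating ribosome affinity purification (TRAP), ribosomes with the EGFP-tagged protein L10a are pulled from a homogenate, so that the recovered RNA comes mainly from cells in which the parvalbumin (PV) promoter has driven Cre. TRAP RNA was sequenced from 4 non-defeated mice, which were kept in pairs without meeting aggressors, and from 4 resilient and 3 susceptible mice, which went through chronic social defeat stress (CSDS) by CD-1 aggressors and were then separated by how much they approached an unfamiliar aggressor. A further 3 libraries, called input, hold total RNA of homogenates from non-defeated mice taken before the pull-down. No input was sequenced here from defeated mice, so enrichment by TRAP was compared in non-defeated mice only.

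A perineuronal net is a lattice of extracellular matrix that wraps the soma and proximal dendrites of certain neurons, most prominently fast-spiking PV interneurons. Hyaluronan chains made by membrane synthases form the backbone, lecticans bind to them by their N-terminal domain and carry chondroitin sulfate chains, link proteins lock that contact, and trimeric tenascin-R ties lecticans together at their C-terminal end. Neurons and glia both secrete these parts, and the nets are known for closing critical periods and for limiting plasticity of inhibitory circuits.

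Each lectican gene lies beside a link protein gene in the mouse genome (GRCm38), with no protein-coding gene between them. Acan (chr7:79053483-79115099) ends 2 bp from Hapln3, Ncan (chr8:70093085-70120873) lies 2222 bp from Hapln4 (chr8:70083457-70090862), Bcan (chr3:87987531-88000230) lies 21519 bp from Hapln2 (chr3:88021750-88027583), and Vcan (chr13:89655312-89742509) lies 43659 bp from Hapln1 (chr13:89539796-89611652). Tnr (chr1:159523769-159931729), Has2 (chr15:56665627-56694539) and Has3 (chr8:106870242-106884566) lie elsewhere. Promoters were matched for 7 of the 10 genes in RefSeq (GRCm38.p6), and 4 are shown, for the members that differed by more than 2-fold between TRAP and input and had a match: Acan and Hapln1, which were higher in TRAP, then Hapln2 and Tnr, which were lower. Each runs 5′ to 3′ on the gene's strand, with 250 bases before the transcription start and 50 bases from the start onwards. Capitals mark matches on either strand. The letters searched were TATAAA for the TATA box bound by the general transcription machinery, GGGCGG for the GC box bound by Sp1-type factors, CAGCTG for an E-box bound by basic helix-loop-helix factors, and AACAAT for the motif of SOX factors.
Acan: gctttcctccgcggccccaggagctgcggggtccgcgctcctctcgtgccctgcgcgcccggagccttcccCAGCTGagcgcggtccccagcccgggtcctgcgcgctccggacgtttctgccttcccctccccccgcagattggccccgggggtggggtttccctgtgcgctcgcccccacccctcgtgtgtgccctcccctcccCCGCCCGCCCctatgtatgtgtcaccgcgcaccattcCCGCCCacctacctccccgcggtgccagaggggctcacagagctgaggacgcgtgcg
Hapln1: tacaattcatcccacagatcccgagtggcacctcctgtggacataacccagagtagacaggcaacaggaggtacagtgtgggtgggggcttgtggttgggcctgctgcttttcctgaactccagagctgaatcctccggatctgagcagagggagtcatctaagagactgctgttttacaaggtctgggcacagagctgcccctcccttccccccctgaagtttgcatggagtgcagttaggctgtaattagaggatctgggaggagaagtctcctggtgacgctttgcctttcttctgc
Hapln2: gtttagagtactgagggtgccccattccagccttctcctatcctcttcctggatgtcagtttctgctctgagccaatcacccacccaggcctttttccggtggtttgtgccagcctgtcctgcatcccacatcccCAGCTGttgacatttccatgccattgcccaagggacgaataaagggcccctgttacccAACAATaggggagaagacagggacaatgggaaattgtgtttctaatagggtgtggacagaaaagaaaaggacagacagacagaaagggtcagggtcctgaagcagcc
Tnr: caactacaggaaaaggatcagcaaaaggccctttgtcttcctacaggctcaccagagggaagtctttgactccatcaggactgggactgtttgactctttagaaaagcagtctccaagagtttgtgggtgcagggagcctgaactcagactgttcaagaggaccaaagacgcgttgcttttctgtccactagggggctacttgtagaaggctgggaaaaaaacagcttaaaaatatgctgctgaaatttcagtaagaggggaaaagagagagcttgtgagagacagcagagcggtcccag
The windows are chr7:79052976-79053275 and chr13:89540386-89540685 on the plus strand, chr3:88027462-88027761 on the minus strand and chr1:159523519-159523818 on the plus strand. The Acan window holds 31 CpG dinucleotides, against 2 in Hapln2, 3 in Hapln1 and 3 in Tnr and a median of 7 over all 32851 mouse promoters. It also holds 1 E-box and 3 GC boxes, of which a pair overlap. Hapln2 holds 1 E-box and 1 SOX motif, and no letters matched in Hapln1 or Tnr. Of all promoters of this length, 35.7% hold a GC box, 16.3% this E-box, 13.6% the TATA box and 10.7% the SOX motif, so such matches are common. The start that RefSeq gives for Acan, 79053226, lies upstream of the start in the GENCODE annotation used for gene positions. Those for Hapln1, 89540636, and Hapln2, 88027511, lie inside the GENCODE genes, and so does the whole Hapln1 window. For Tnr the starts are the same.

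Between 64110214 and 80063224 reads were counted on genes in an input library and between 72098582 and 94726962 in a TRAP library. Values are given as counts scaled to library size (CPM) after TMM normalization, which corrects for library composition, as mean ± SD over libraries. Where levels of different genes are compared, CPM was divided by exon length in kb (RPKM). Each TRAP library held both hippocampi of 1 mouse, and the spread between libraries is the error used throughout. Pvalb, the gene whose promoter drives Cre, checked the pull-down: it stood at 25.4 ± 6.03 CPM (n = 3) in input and 1464 ± 134 CPM (n = 4) in non-defeated TRAP. The PV neuron markers examined were Pvalb, Kcnc1, Syt2, Tac1, Gad1, Gad2, Erbb4 and Lhx6, not all of which are limited to PV neurons. All 8 were higher in TRAP at an adjusted p under 0.05 by edgeR. All 6 oligodendrocyte, 5 oligodendrocyte precursor, 6 microglial and 6 excitatory neuron markers were lower, as were 5 of 6 astrocyte markers. Of 6 markers of other interneurons, 2 were higher and 3 lower, and their sum went from 292 ± 23.9 CPM in input to 489 ± 98.2 CPM in non-defeated TRAP. Of 6 endothelial and mural markers 1 was higher and none lower, with sums of 7.05 ± 0.828 and 7.21 ± 2.60 CPM.

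Within the link proteins, Hapln4 dominated. In input its level per length was 18.8 ± 0.983 RPKM (n = 3), against 4.46 ± 0.963 RPKM for Hapln2 and 1.18 ± 0.162 RPKM for Hapln1. In non-defeated TRAP, Hapln4 reached 51.2 ± 5.79 RPKM (n = 4), Hapln1 2.55 ± 0.364 RPKM and Hapln2 0.993 ± 0.268 RPKM, so the order of the lower pair of link proteins was turned around. As a share of the summed RPKM of the 3 genes, Hapln4 went from 76.9% ± 3.29 in input to 93.5% ± 0.900 in non-defeated TRAP, and Hapln2 from 18.2% ± 3.47 to 1.80% ± 0.370. Hapln1 held 4.84% ± 0.881 and 4.73% ± 1.10, a share that differed by less than its spread.

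Among the lecticans, Bcan had the highest level per length in input, 15.2 ± 0.894 RPKM, followed by Ncan with 3.47 ± 0.272, Acan with 0.118 ± 0.0406 and Vcan with 0.0874 ± 0.00499 RPKM (n = 3). Acan and Vcan did not differ beyond the spread of Acan there. In non-defeated TRAP the order was the same, with 10.7 ± 2.77 RPKM for Bcan, 2.46 ± 0.428 for Ncan, 0.338 ± 0.0398 for Acan and 0.0697 ± 0.0371 RPKM for Vcan (n = 4), and here Acan and Vcan lay apart. The share of Acan in the summed RPKM of the 4 lecticans went from 0.619% ± 0.197 in input to 2.65% ± 0.879, while Bcan kept 80.5% ± 1.86 and 78.4% ± 2.15. Of the remaining members, Tnr stood at 0.307 ± 0.0803, Has3 at 0.448 ± 0.0423 and Has2 at 0.0290 ± 0.0213 RPKM in non-defeated TRAP. The level of Bcan depends most on the length chosen, since its longest transcript gives 13.8 in place of 10.7 RPKM.

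**Figure D1:**
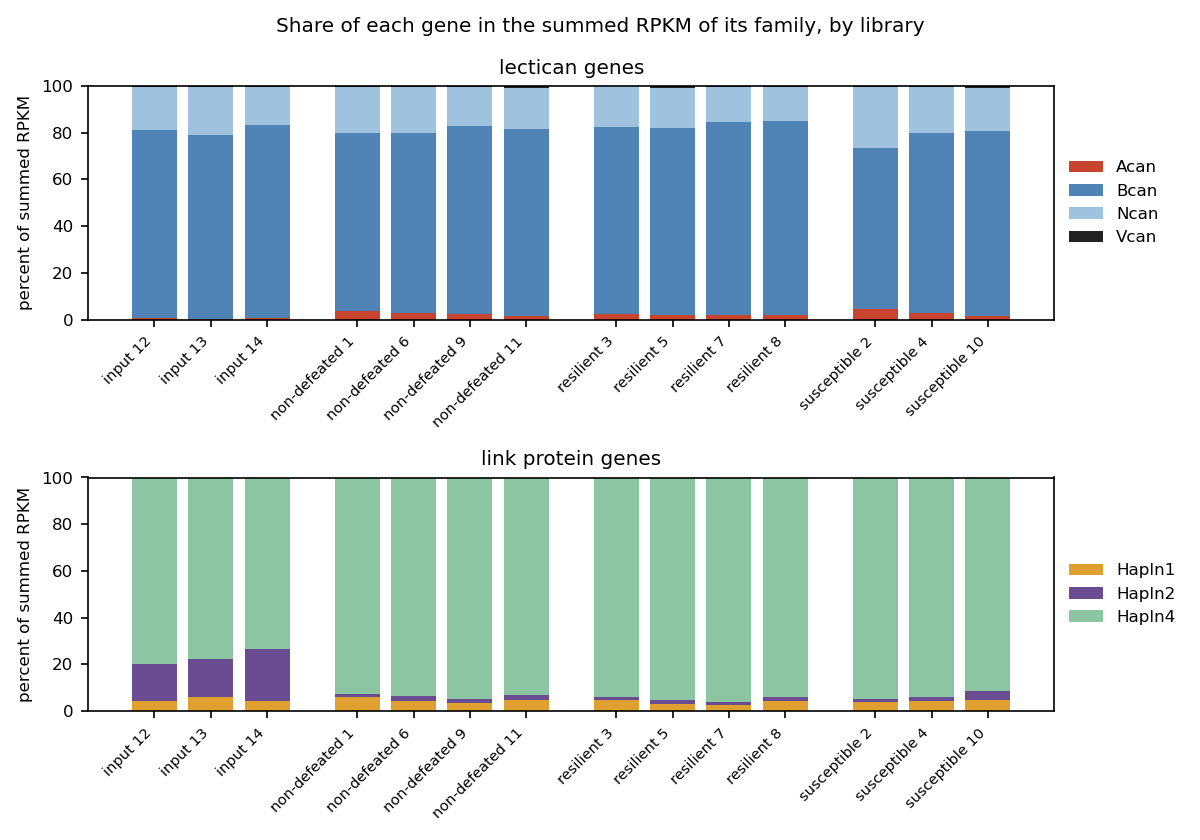
Each bar is 1 library, and its segments give each gene's percentage of the summed RPKM of the lecticans (upper panel) or of the link proteins (lower panel). Bcan fills most of every lectican bar, and Hapln2 shrinks from a mean of 18.2% in input to 1.80% in non-defeated TRAP as Hapln4 grows.

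The first comparison asked which net genes were more, or less, frequent in RNA pulled down with ribosomes of PV cells than in total hippocampal RNA. It cannot separate the cell type that carries an RNA from how much of that RNA is bound to ribosomes. Of the 10 genes, 6 passed an adjusted p under 0.05 between non-defeated TRAP and input: Acan, Hapln1 and Hapln4 were higher, and Ncan, Hapln2 and Tnr were lower. The same test called 55.0% of all genes, 27.4% higher and 27.6% lower, so the share of net genes called is near the background. The median log2 fold change of the 10 was -0.41, against -0.04 over all genes tested. The groups did not overlap in 8 of the 10, against 62.0% of all genes, and the exact permutation p was 0.0286, the smallest this design allows, for Acan, Hapln1, Hapln2, Hapln4 and Tnr. Calls went in both directions within the lecticans and within the link proteins.

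Acan encodes aggrecan, the lectican most tied to nets around PV cells. It was counted at 0.903, 0.566 and 1.17 CPM in the input libraries and at 2.87, 2.52, 2.56 and 2.15 CPM in non-defeated TRAP, from 40 to 232 reads per library. All 4 TRAP libraries lay above all 3 input libraries. The difference was 2.85-fold, a log2 fold change of 1.51 ± 0.25 (SE), with an adjusted p of 0.000165 by edgeR's quasi-likelihood test, and ranked Acan 1215th from the highest of 21298 genes.

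Bcan (brevican) and Ncan (neurocan), which glia and neurons both make, had negative log2 fold changes. Ncan was at 25.6, 26.6 and 22.8 CPM in input and at 14.5, 16.0, 18.8 and 21.5 CPM in TRAP, with no overlap, and fell by 0.50 ± 0.14 on the log2 scale at an adjusted p of 0.00675. This call was lost when gene length was taken into account (log2 fold change -0.21, adjusted p = 0.119), and the exact permutation p was 0.0571. Bcan stood at 63.2, 57.7 and 64.6 CPM in input and at 32.2, 35.3, 50.8 and 55.0 CPM in TRAP. Its groups did not overlap either, but TRAP libraries spread widely and the log2 fold change of -0.51 ± 0.21 missed the threshold, with an adjusted p of 0.0521. The lower values were those of replicates 1 and 6 and the higher ones those of replicates 9 and 11. Astrocyte markers summed to 214 and 215 CPM in replicates 1 and 6 and to 286 and 332 CPM in replicates 9 and 11. Markers of other interneurons ran the other way, from 615 and 519 to 421 and 402 CPM. Their part was not tested. Without non-defeated replicate 11 or replicate 9, the libraries with the most Bcan, the adjusted p was 0.0257 and 0.0402, and without any 1 of the other 5 libraries it was between 0.0762 and 0.134. With gene length taken into account the log2 fold change was -0.34, at an adjusted p of 0.153.

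Vcan (versican), which oligodendrocyte precursors express strongly, was low and variable. Input libraries agreed on 1.24, 1.35 and 1.21 CPM, whereas non-defeated TRAP gave 0.767, 0.770 and 0.684 CPM and, in replicate 11, 1.81 CPM. The groups overlapped through that library, and the 95% interval of the log2 fold change, -1.59 to 0.94, leaves the direction undetermined.

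All 3 link proteins passed the test. Hapln4, known to anchor brevican in nets of fast-firing neurons, was at 78.1, 70.9 and 72.1 CPM in input and at 175, 191, 228 and 209 CPM in TRAP. It rested on 5007 to 17614 reads per library, the deepest counts of the 10 genes, and every TRAP library exceeded every input library by more than 2-fold. The log2 fold change was 1.45 ± 0.15, with an adjusted p of 1.52e-06. Hapln1, the cartilage-type link protein whose loss thins the nets, was at 6.23, 8.03 and 6.58 CPM in input and at 17.7, 13.9, 12.8 and 15.8 CPM in TRAP. Again no library of one group reached the other, and the log2 fold change was 1.11 ± 0.22 with an adjusted p of 0.000574.

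Hapln2 encodes Bral1, the link protein of nodes of Ranvier, and is expressed by myelinating oligodendrocytes. It stood at 9.46, 9.05 and 13.2 CPM in input and at 1.48, 2.34, 2.65 and 2.95 CPM in TRAP. The groups lay far apart, and the log2 fold change of -2.17 ± 0.24, at an adjusted p of 4.21e-06, placed it 20665th of 21298 genes. The summed level of the 6 oligodendrocyte markers moved with it, from 2126 to 2505 CPM in input to 535 to 732 CPM in TRAP, and none of those markers was at 0. The part of oligodendrocyte RNA in the Hapln2 difference was not tested. The comparison sets pulled-down RNA against total RNA of the homogenate, so it measures neither the number of oligodendrocytes nor their RNA per cell.

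Tnr encodes tenascin-R, which oligodendrocyte lineage cells and some interneurons make. It was at 8.68, 7.15 and 9.20 CPM in input and at 4.84, 2.52, 3.89 and 4.55 CPM in TRAP. The groups did not overlap, and Tnr fell by 1.08 ± 0.21 on the log2 scale at an adjusted p of 0.000549. The 5 oligodendrocyte precursor markers summed to between 323 and 370 CPM in input and between 59.4 and 89.4 CPM in TRAP, and their part was not tested. Exons of Tnr share 3.44% of their length with a gene on the opposite strand, which is not among the gene IDs counted. The strand setting of the read counting is not given in the sources used here, so reads there cannot be assigned to 1 of the genes. The same holds for 4.3% of Has2, shared with Has2os, and for 5.52% of Has3, shared with Chtf8, which were counted.

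The hyaluronan synthases did not pass the test. Has3, which makes shorter chains, was at 2.45, 2.48 and 2.30 CPM in input and at 3.07, 2.505, 2.80 and 3.07 CPM in TRAP. The TRAP libraries all lay above input, but by a log2 fold change of 0.25 with a 95% interval of -0.17 to 0.67. Corrected for gene length, the log2 fold change was 0.53 at an adjusted p of 0.0291. Has2, which makes long chains, was counted by 3 to 20 reads per library in this comparison, and the interval of its log2 fold change, -2.48 to 0.96, includes both falls and rises, so no difference was detectable at this depth. The related genes outside the set were close to these low levels, with 0.287 ± 0.144 CPM for Hapln3 and 0.982 ± 0.409 CPM for Has1 in non-defeated TRAP, and neither passed.

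**Figure D2:**
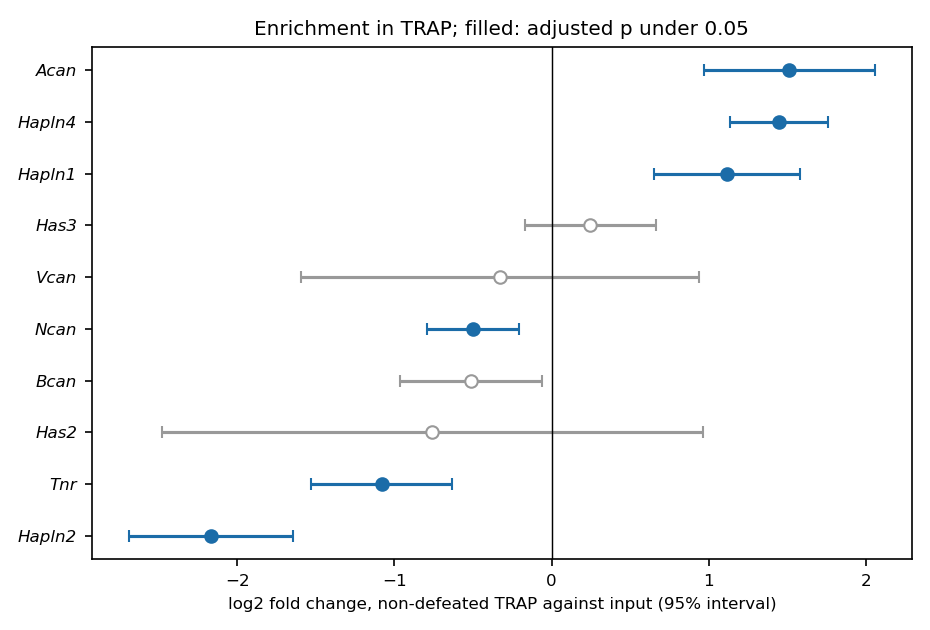
The log2 fold change of non-defeated TRAP (n = 4) against input (n = 3) is plotted on the horizontal axis for each of the 10 genes, with its 95% interval, and points are filled where the adjusted p was under 0.05. Acan, Hapln4 and Hapln1 lie to the right of 0 and Ncan, Tnr and Hapln2 to the left, while the widest intervals belong to Vcan and Has2.

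Enzymes that build the chondroitin sulfate chains of the lecticans changed in both directions. Of 22 genes listed, 21 were tested, and 3 were higher, 10 lower and 8 not called, where 27.4% of all genes were higher and 27.6% lower. The median log2 fold change was -0.35, against -0.04 over all genes. Chpf, a chain polymerizing factor, was higher, at 137 ± 10.4 against 72.9 ± 5.45 CPM (log2 fold change 0.91 ± 0.09, adjusted p = 1.12e-06). Csgalnact1, which starts the chain, had a log2 fold change of -1.65 ± 0.14 (adjusted p = 3.18e-07). Ust, which sulfates uronic acid within the chain, stood at 46.4 ± 4.57 CPM in input and 10.3 ± 1.38 CPM in TRAP and fell by 2.18 ± 0.13 (adjusted p = 1.1e-08).

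Matrix proteases and their inhibitors split, with 4 of 15 tested genes higher, a share close to the 27.4% of all genes, and 9 lower, against 27.6% of all genes. Adamts8, a secreted protease of the family that cleaves lecticans, was higher by a log2 fold change of 2.25 ± 0.25, at 17.2 ± 2.499 against 3.63 ± 0.443 CPM (adjusted p = 3.11e-06). Mmp17, a membrane-anchored metalloprotease, fell by 1.51 ± 0.11 (adjusted p = 7.7e-08), and the inhibitor Timp4, known from astrocytes, fell by 1.75 ± 0.16 (adjusted p = 6.65e-07).

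Genes of hyaluronan turnover and binding numbered 9, of which 1 was higher and 3 lower, so the 4 called are no larger a share than the 55.0% of all genes called. Hyal2, a hyaluronidase at the cell surface, was higher by 0.73 ± 0.13 on the log2 scale (adjusted p = 0.000333). Cemip2, a transmembrane protein of hyaluronan breakdown, fell by 1.05 ± 0.25 (adjusted p = 0.00226), and Tnfaip6, which moves heavy chains onto hyaluronan, fell by 1.89 ± 0.35 (adjusted p = 0.000383).

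Of 13 receptors and ligands of nets, their chains or their synapses, none was higher and 8 were lower, against 27.4% and 27.6% of all genes. Nptx1, a pentraxin that clusters AMPA receptors, stood at 247 ± 31.8 CPM in input and 46.1 ± 11.8 CPM in TRAP (log2 fold change -2.42 ± 0.21, adjusted p = 3.14e-07). Its membrane-bound relative Nptxr fell by 1.86 ± 0.18 (adjusted p = 1.18e-06), and Rtn4rl2, a relative of the Nogo receptor, fell by 1.74 ± 0.17 (adjusted p = 1.2e-06). The excitatory neuron markers, summed, moved along with these genes, from 1819 to 2180 CPM in input to 631 to 833 CPM in TRAP, and their part was not tested. Of 5 other matrix genes, Cspg5 passed, at 88.2 ± 1.73 against 67.5 ± 5.16 CPM (log2 fold change -0.39 ± 0.13, adjusted p = 0.0194), and its call was lost with an offset for gene length (adjusted p = 0.716) and without non-defeated replicate 11 or input replicate 14.

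**Figure D3:**
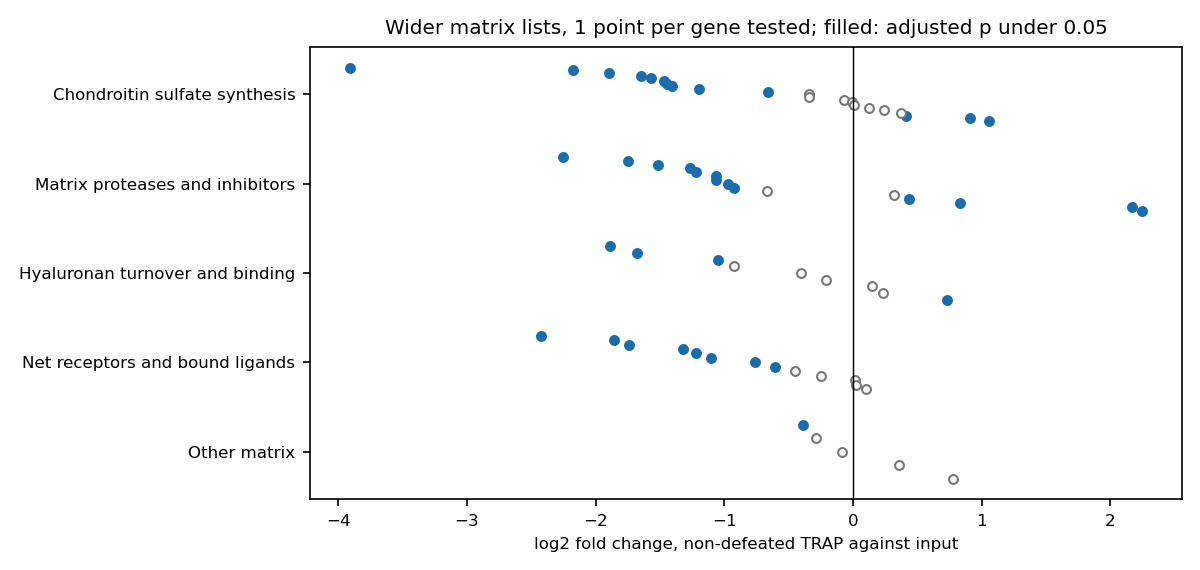
Every point is a gene of the wider matrix lists, placed by its log2 fold change between non-defeated TRAP and input, and filled where the adjusted p was under 0.05. No receptor or ligand lies filled to the right of 0, and both points beyond 2 on the right are proteases.

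The other comparisons asked whether net genes differ between TRAP RNA of non-defeated, resilient and susceptible mice. No member passed an adjusted p under 0.05 in any of the 3, which share their groups pairwise. That threshold called 0.00% of all genes between resilient and non-defeated mice and 0.0376% between susceptible and non-defeated mice. The share was 1.89% (403 genes) between susceptible and resilient mice, and it depended on the fit. The count there was 1 gene with the 11 TRAP libraries alone, 0 with the 2 groups alone and 1004 by DESeq2. At an unadjusted p under 0.05, edgeR called no member against non-defeated mice, where the share of all genes called was 4.38% for resilient and 13.3% for susceptible mice. Between susceptible and resilient mice it called 2 of 10, both lower in susceptible mice, against 20.9% of all genes in either direction and 10.1% lower. The groups overlapped for all 10 members in all 3 comparisons, where 2.35%, 8.62% and 15.1% of all genes did not overlap. DESeq2 called no member after adjustment either.

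Hapln4 was one of that pair. It stood at 236, 191, 266 and 226 CPM in resilient mice (replicates 3, 5, 7 and 8), at 187, 195 and 129 CPM in susceptible mice (replicates 2, 4 and 10) and at 175, 209, 191 and 228 CPM in non-defeated mice. Susceptible replicate 10 was the lowest of all 11 TRAP libraries, and susceptible replicate 4 lay above resilient replicate 5, so the groups overlapped. Susceptible against resilient mice gave a log2 fold change of -0.43 ± 0.14, with an unadjusted p of 0.00838, an adjusted p of 0.109 and an exact permutation p of 0.0857 where the design allows no value under 0.0286. Without susceptible replicate 10 it was -0.27, with an unadjusted p of 0.0502. Without any other 1 library of these groups it was between -0.54 and -0.36, at an unadjusted p between 0.00306 and 0.0286. Summed PV neuron markers were also lowest in susceptible replicate 10, at 3331 CPM, against 3813 to 4644 CPM in the other resilient and susceptible libraries. Astrocyte, microglial and oligodendrocyte precursor markers were highest there of the 11 TRAP libraries, at 432, 35.9 and 104 CPM. Oligodendrocyte and excitatory neuron markers were not. The part of these markers was not tested.

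Bcan was the other. Resilient mice gave 39.4, 52.5, 54.6 and 57.6 CPM, susceptible mice 25.5, 35.9 and 48.0 CPM, and non-defeated mice 32.2, 35.3, 50.8 and 55.0 CPM. Susceptible replicate 10, the lowest library for Hapln4, was the highest of its group for Bcan and lay above resilient replicate 3. The log2 fold change between susceptible and resilient mice was -0.48 ± 0.22, with an unadjusted p of 0.0407, an adjusted p of 0.216 and an exact permutation p of 0.114. Its unadjusted p rose above 0.05 without resilient replicate 5 (0.0679), 7 (0.0762) or 8 (0.0935) and without susceptible replicate 2 (0.209) or 4 (0.0881). It fell without resilient replicate 3 (0.0167) and without susceptible replicate 10 (0.00535, log2 fold change -0.73). The adjusted p by edgeR was then 0.128 and 0.068. With TRAP libraries alone the unadjusted p by edgeR was 0.0578. With a covariate for sample numbers 1 to 6 against 7 to 11 added to that fit it was 0.0107 (adjusted p = 0.126). The 6 markers of other interneurons were high where Bcan was low, at 778 CPM in resilient replicate 3 and at 850 and 858 CPM in susceptible replicates 2 and 4, against 396 to 474 CPM in the remaining 4 of these libraries. Their part was not tested. The labels give no batch, but by the number in the sample name the mean log2 difference between susceptible and resilient mice was -0.59 for Bcan and -0.15 for Hapln4 among numbers 1 to 6 and -0.22 and -0.93 among numbers 7 to 11, which hold 1 susceptible library.

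Acan differed little between stress groups, at 2.52 ± 0.297 CPM in non-defeated, 2.42 ± 0.250 CPM in resilient and 2.43 ± 0.701 CPM in susceptible mice. The 95% interval of its log2 fold change was -0.54 to 0.41 for resilient against non-defeated, -0.57 to 0.46 for susceptible against non-defeated and -0.50 to 0.52 for susceptible against resilient mice. Susceptible mice held both the highest and the lowest Acan library of the 11, 3.16 CPM in replicate 2 and 1.76 CPM in replicate 10. Hapln1 was at 15.03 ± 2.15, 13.8 ± 4.34 and 11.6 ± 1.62 CPM in non-defeated, resilient and susceptible mice, and its interval for susceptible against non-defeated mice was -0.82 to 0.08. Resilient mice ranged from 9.11 to 18.5 CPM, across the whole span of the other groups.

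Ncan stood at 17.7 ± 3.08, 17.7 ± 2.10 and 17.8 ± 1.87 CPM in the same order, and its intervals lay within -0.29 and 0.31 in all 3 comparisons. Tnr stood at 3.95 ± 1.03, 3.999 ± 0.669 and 3.46 ± 0.4997 CPM, Hapln2 at 2.35 ± 0.634, 2.15 ± 0.230 and 2.37 ± 0.770 CPM and Has3 at 2.86 ± 0.270, 2.64 ± 0.505 and 2.87 ± 0.707 CPM, all with overlapping groups. Vcan ranged from 0.295 CPM in resilient replicate 3 to 2.08 CPM in resilient replicate 5. Has2 came from 3 to 27 reads in each TRAP library, and its interval between susceptible and resilient mice reached from -1.65 to 1.82. Shares within families followed the levels: Hapln4 held 93.5% ± 0.900, 94.7% ± 1.09 and 93.4% ± 1.74 of link protein RPKM in non-defeated, resilient and susceptible mice.

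**Figure D4:**
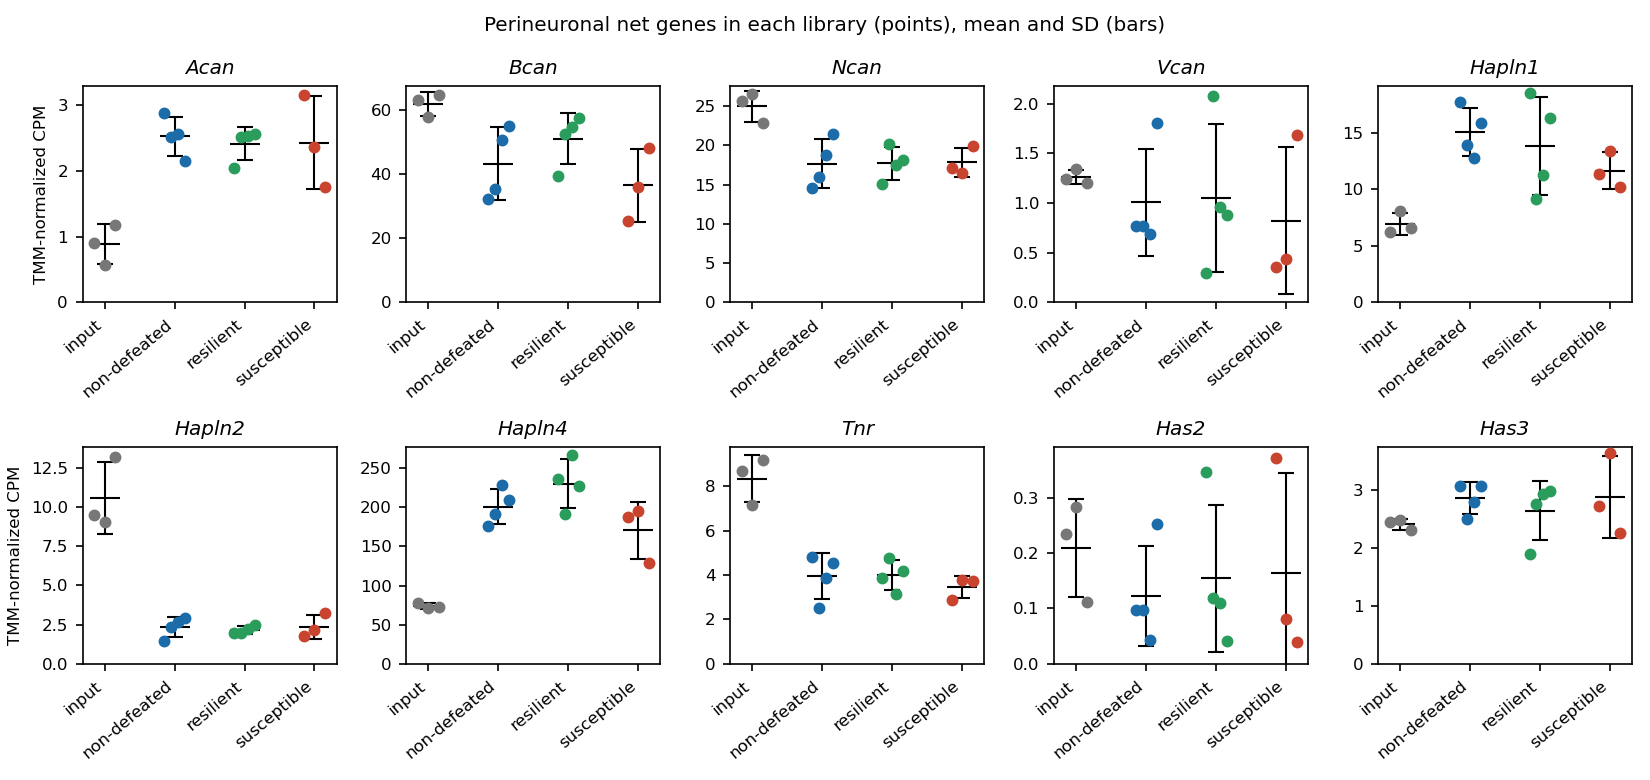
Each panel shows 1 gene, with TMM-normalized CPM from 0 on the vertical axis, a point for each library of the 4 groups, and bars for the mean and SD. Input stands apart from all TRAP groups for Acan, Hapln1, Hapln2, Hapln4 and Tnr, and more narrowly for Ncan and Bcan. For Ncan the lowest input library was at 22.8 CPM and the highest TRAP library at 21.5 CPM. For Bcan these were 57.74 and 57.62 CPM. The 3 TRAP groups overlap in every panel.

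**Figure D5:**
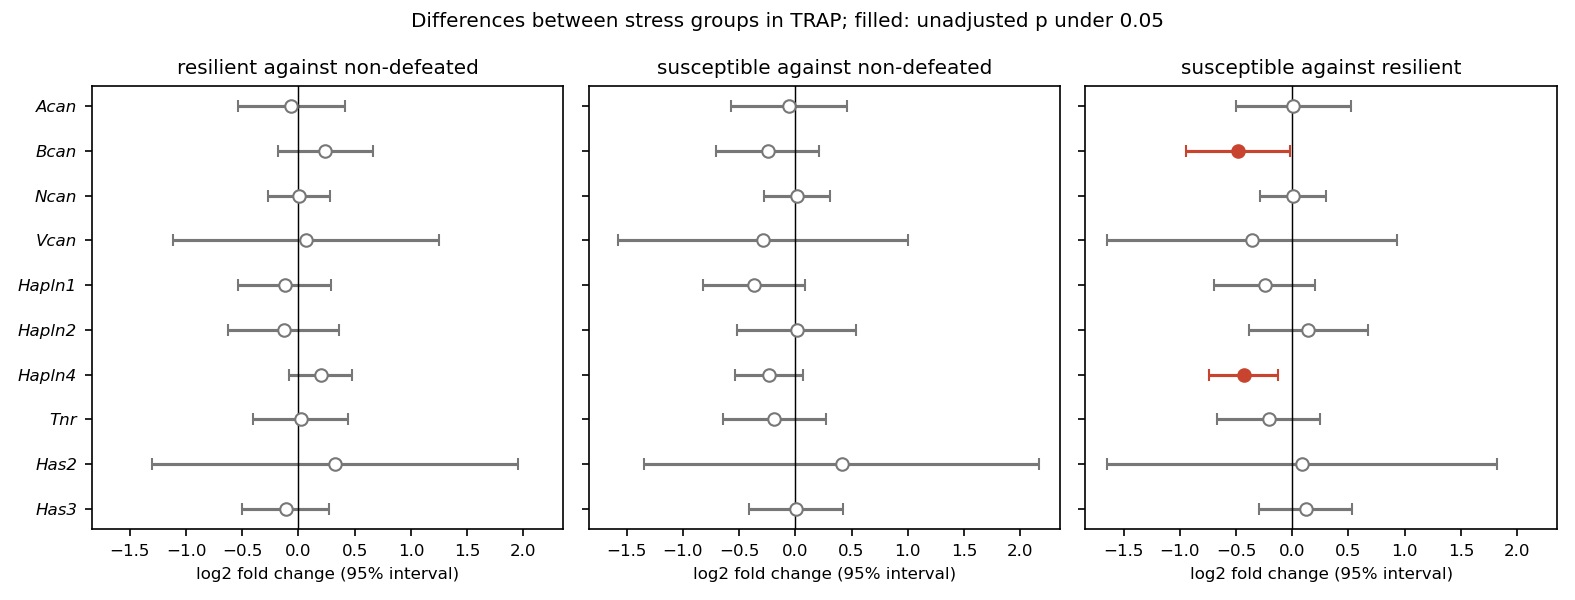
For each pair of stress groups, the log2 fold change of each gene in TRAP is plotted with its 95% interval, filled where the unadjusted p was under 0.05. Hapln4 and Bcan between susceptible and resilient mice, at -0.43 and -0.48, are the only filled points, and neither passed after adjustment.

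In the wider lists, 1 gene passed between stress groups at an adjusted p under 0.05, Chst11, a chondroitin 4-O-sulfotransferase. It was at 12.5, 10.8 and 5.26 CPM in susceptible mice and between 3.20 and 5.31 CPM in resilient mice, so susceptible replicate 10 lay within the resilient range. The log2 fold change was 1.18 ± 0.26 with an adjusted p of 0.0424 by edgeR. It is 1 of 21 chondroitin sulfate genes tested, where 1.89% of all genes passed in this fit, a share that depended on the fit. Its call was kept without susceptible replicate 10 (adjusted p = 0.0222) and lost without each of the other libraries compared, resilient replicates 3 (0.0638), 5 (0.0761), 7 (0.109) and 8 (0.093) and susceptible replicates 2 (0.175) and 4 (0.094). Non-defeated mice, at 4.88 ± 1.12 CPM, differed from susceptible mice by a log2 fold change of 0.96 for susceptible against non-defeated, with an adjusted p of 0.182. No other list gene tested passed in any of the 3 comparisons of stress groups.

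Over the 11 TRAP libraries the members did not vary as 1 group. Bcan, Ncan, Vcan and Hapln2 varied together, with a Pearson r of log2 CPM of 0.67 for Bcan with Ncan, 0.76 for Ncan with Vcan and 0.67 for Bcan with Vcan, and for Hapln2 of 0.73 with Ncan, 0.65 with Bcan and 0.51 with Vcan. Acan ran against Hapln2 (r = -0.69) and showed r of -0.46 with Bcan and 0.29 with Hapln4. Ncan followed the summed markers of microglia (0.91), astrocytes (0.89) and excitatory neurons (0.85), while Hapln4 followed those of PV neurons (0.68) and had -0.43 with astrocytes. Hapln1 had 0.60 with PV neuron markers and -0.79 with oligodendrocyte markers, whereas Acan had only 0.23 with PV neuron markers. The strongest value of Bcan was -0.85, with the markers of other interneurons. Hapln2 had only 0.25 with the summed oligodendrocyte markers, against 0.74 with those of microglia and 0.70 with those of astrocytes. The points share library, depth and normalization and come from 3 groups, and the values only describe these libraries.

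The genes with the most similar profiles over the same 11 libraries, the highest of all genes tested, were for Hapln4 Hgsnat (r = 0.98), Dpp6 (0.97) and Wwox (0.95), and for Hapln1 Tram1 (0.95), Slc25a16 (0.92) and Gatd1 (0.90). For Acan they were Shisal2b (0.94), Apba1 (0.90) and Gm24409 (0.85), and for Tnr C030047K22Rik (0.86), Tbxas1 (0.86) and the unnamed ENSMUSG00000078169 (0.85). No other member of the net was among these.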

How the data were processed

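TRAP RNA of 11 hippocampal samples and total RNA of 3 input samples were compared. The authors trimmed reads with fastp, aligned them to mm10 with STAR (2.5.3a with HTSeq in the submitters' processing notes) and deposited raw counts per gene without normalization. The annotation and strand setting of the counting are not given in the sources used here, and the labels name translating RNA for input too, where the series' design names total RNA. Samples were grouped by label, all 14 columns were used, and groups share no replicate number.

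Genes were named, measured and placed from GENCODE M21 (GRCm38). Unnamed IDs held 0.824% of counts. All libraries were fitted together in R 4.3.3 with edgeR 4.0.16 (TMM, default filter on low counts, quasi-likelihood test, two-sided, Benjamini-Hochberg adjustment over 21298 genes, threshold 0.05). Exact permutation tests on log2 CPM (prior count 2) cannot go below 0.0286. Depth sets the precision: counting error is part of the spread tested.

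All 10 members were named; Pvalb, Hapln3 and Has1 were added, and from each list the 3 genes with the smallest adjusted p among those called, per comparison. Members and lists were chosen with earlier results of these data known. Alternatives were DESeq2 1.42.0, RLE factors, 2 other filters, length and GC offsets, TRAP libraries only, 2 groups only and leaving out each library. The number covariate separated sample numbers 1 to 6 from 7 to 11 and was fitted on the TRAP libraries only. Library totals without factors were added after seeing the data. The steps were tested on simulated data. Figures were drawn with matplotlib 3.10.9.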

Additional observations from a re-analysis of the deposited data

Results flagged for a closer look

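In 20 groups of 4 libraries examined (10 genes in non-defeated and in resilient TRAP), 2 held a library far from the others by Dixon's criterion, where chance gives about 1 in 20. Acan in resilient replicate 3 was at 2.04 CPM, below the 2.52 to 2.57 CPM of the other 3 resilient libraries. Vcan in non-defeated replicate 11 was at 1.81 CPM, above the 0.684 to 0.770 CPM of the other 3 non-defeated libraries.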

How the results depend on the processing

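Between TRAP and input, 6 or 7 members passed under every alternative and in every fit without 1 library, and no direction changed. Bcan passed with no filter on low counts (adjusted p = 0.04998), at least 10 counts in every library (0.0353), library totals in place of TMM (0.00965), only the 2 groups compared (0.0342) or DESeq2 (0.0124), with log2 fold changes between -0.70 and -0.49, and did not pass with RLE factors (0.0507), the GC offset (0.0546) or the length offset (0.153, log2 fold change -0.34). Library totals moved the median of all genes by -0.19 and the length offset by 0.11, and the -0.70 of Bcan with library totals includes that shift. Between stress groups no member passed after adjustment under any alternative. The count at an unadjusted p under 0.05 became 1 between susceptible and non-defeated mice with only those groups or with DESeq2, and 1 between susceptible and resilient mice with the GC offset or the TRAP libraries alone; leaving out 1 library gave 0 to 2 and 1 to 2. Some members changed sign: Ncan between resilient and non-defeated mice with the GC offset (-0.032), Acan (0.0058) and Hapln2 (-0.036) with the length offset and Has2 (-0.00098, from 0.41) with the number covariate between susceptible and non-defeated mice, and Acan (-0.038) and Has2 (-0.079) with that covariate between susceptible and resilient mice. Without 1 library, log2 fold changes that changed sign ranged, for resilient against non-defeated mice, from -0.14 to 0.0089 for Acan, -0.078 to 0.11 for Ncan, -0.50 to 0.51 for Vcan, -0.30 to 0.031 for Hapln1, -0.15 to 0.13 for Tnr, -0.43 to 0.92 for Has2 and -0.18 to 0.015 for Has3, for susceptible against non-defeated mice, from -0.29 to 0.13 for Acan, -0.076 to 0.12 for Ncan, -1.35 to 0.16 for Vcan, -0.28 to 0.19 for Hapln2, -1.004 to 1.01 for Has2 and -0.20 to 0.15 for Has3, and for susceptible against resilient mice, from -0.23 to 0.19 for Acan, -0.081 to 0.075 for Ncan, -1.41 to 0.21 for Vcan, -0.15 to 0.32 for Hapln2, -1.33 to 0.84 for Has2 and -0.089 to 0.27 for Has3. Chst11 also lost its call with no filter, the GC offset, TRAP libraries alone, the number covariate and the 2 groups alone (adjusted p 0.052 to 0.145), and passed by DESeq2 (0.00474). The causes were not tested. No paired analysis was possible because the groups share no replicate number. Whether input came from the same mice as non-defeated TRAP is not given, and the tests treat all libraries as independent. Depth limits Has2, with 3 to 27 reads per library.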

Other observations

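A few list genes stood out after their values were seen. Adamts15, the neighbor of Adamts8 on chromosome 9 and also a secreted protease of the lectican-cleaving family, was higher in non-defeated TRAP, at 12.4 ± 1.18 CPM (n = 4), than in input, at 2.76 ± 1.21 CPM (n = 3), with no overlap between groups (log2 fold change 2.17 ± 0.27, edgeR adjusted p = 1.06e-05). Chst3, a chondroitin 6-O-sulfotransferase, was counted by 47 to 101 reads per input library and by 0 to 14 reads per non-defeated TRAP library (log2 fold change -3.91 ± 0.97, adjusted p = 0.00345). Resilient libraries held 1 to 25 and susceptible libraries 2 to 32 reads of Chst3.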
